A study of Mus musculus with 10 samples.

Results

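The 9 genes described here are the 8 enzymes of the pentose phosphate pathway, G6pdx, H6pd, Pgls, Pgd, Rpia, Rpe, Tkt and Taldo1, and Idh1, the cytosolic NADP-dependent isocitrate dehydrogenase. They were taken by gene symbol from a table of 24470 gene entries, and 9 of 9 were found and passed the filter on low counts, as did 13941 entries in all. RNA was sequenced from testes of C57BL/6 mouse embryos at E12.5. Each of 5 embryos (M1 to M5) gave a pair of gonads: 1 spent 48 h in culture with GPI, an inhibitor of glycogen phosphorylase, at 75 µM, and the other with DMSO as vehicle. The gonads were cultured on agar with the mesonephros attached and were separated from it before RNA extraction, so each library holds RNA of all cell types of 1 gonad. GPI reaches every cell type of the gonad, and the embryos carried no mutation given in the labels. Libraries held 10203679 to 15590223 counts with vehicle (median 11114376, n = 5) and 11025409 to 15635322 with GPI (median 11691690, n = 5).

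The pentose phosphate pathway branches from glycolysis at glucose 6-phosphate. Its oxidative phase turns glucose 6-phosphate into ribulose 5-phosphate and reduces NADP to NADPH at each of its dehydrogenase steps, and its reversible non-oxidative phase interconverts pentose phosphates with glycolytic intermediates. NADPH is the reductant for the synthesis of fatty acids and sterols, for steroid hydroxylation in steroidogenic cells of the testis and for keeping glutathione reduced. Idh1 is a further source of cytosolic NADPH, and works outside the pentose phosphate pathway.

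With GPI, Idh1, G6pdx and Rpe were higher, and none of the 9 genes was lower (edgeR, quasi-likelihood F test, FDR 0.05 by Benjamini-Hochberg). The same test called 22.9% of all tested genes in either direction, 11.1% higher and 11.9% lower, so 3 of 9 higher and 0 of 9 lower is a small count to read against that background. Over all tested genes 1544 were higher and 1654 lower; these counts were 969 and 1347 without M3, and 1024 and 1287 without M4. At an unadjusted p under 0.05, 5 of the 9 passed, 4 of them higher and H6pd lower, against 34% of all tested genes in either direction, a background that holds for the lists below as well, and DESeq2 and limma-voom also called the same 3 genes and none lower. The median log2 fold change was 0.22 over the 9 genes and 0.20 over the 8 pathway genes, against 0.02 over all tested genes. Normalized counts of the 2 treatments did not overlap for Idh1, G6pdx and Rpe, 3 of 9 against 16.1% of all tested genes, and 4 of 9 genes (these and H6pd) had the same direction in 5 of 5 mice, against 30.5%. Normalized counts are counts divided by the TMM-scaled library size and multiplied by the mean of that size over the 10 libraries.

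**Figure D1:**
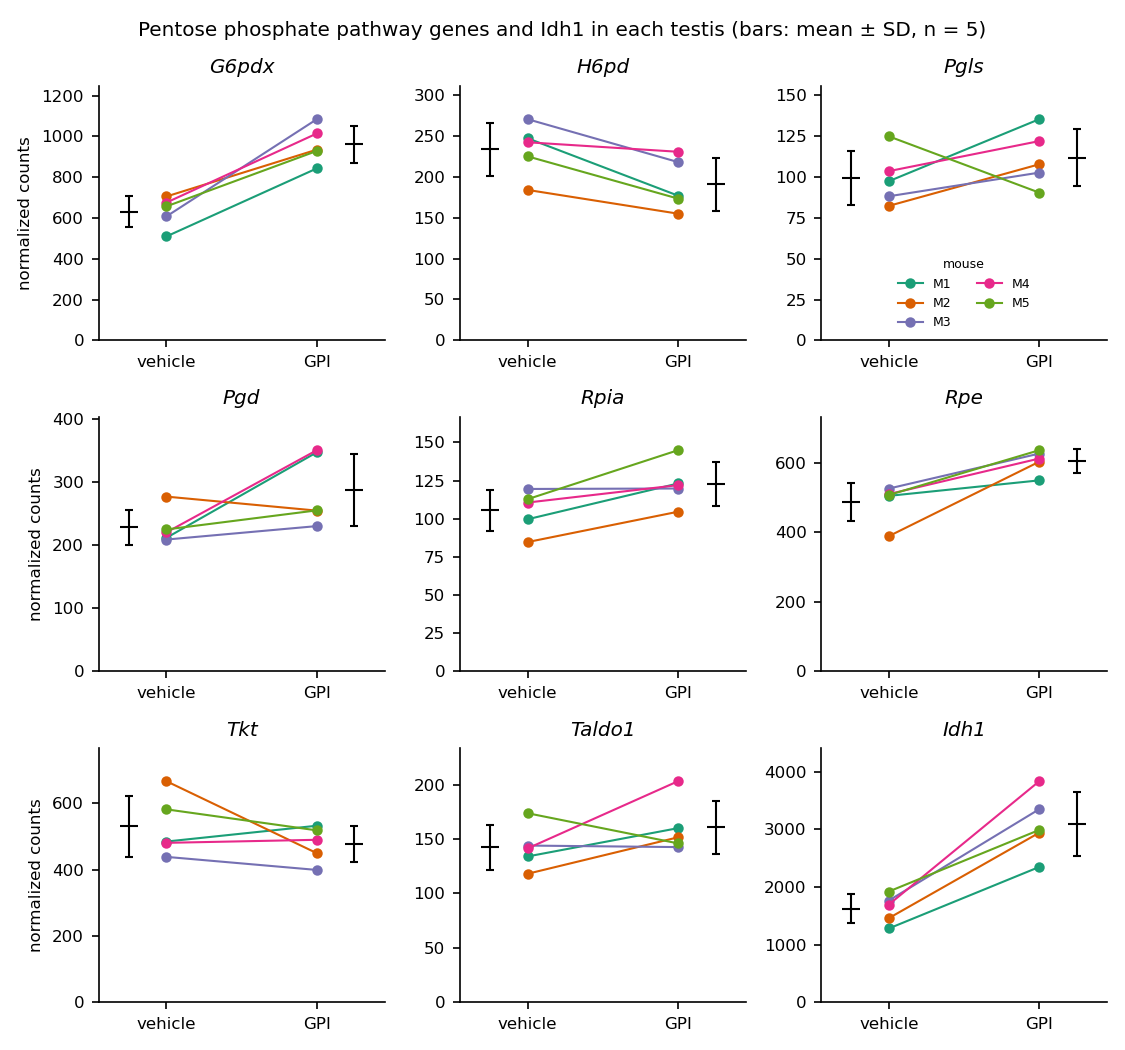
Normalized counts of the 9 genes in each testis (vertical axes, each starting at 0) with vehicle and with GPI; a line joins the gonads of 1 mouse, and the bars beside the points give the mean ± SD of 5 libraries. The GPI points of Idh1 (2349 to 3836), G6pdx (843 to 1084) and Rpe (550 to 636) lie above every vehicle point of the same gene, while the points of the other 6 genes overlap.

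Promoter sequences of RefSeq (GRCm38.p6, the build called mm10) were found for 9 of 9 genes, 11 promoters in all, each from 250 bases before to 50 bases after a gene start. Idh1 and Pgd had 2 promoters each. Shown is 1 promoter of each of the 3 genes that were higher with GPI. Also shown is the second Pgd promoter, which has a match to the first motif named below, as that of G6pdx has. Capitals mark the antioxidant response element (letters TGACNNNGC, the motif of the factor NRF2), the CCAAT box (CCAAT) and the GC box (GGGCGG), searched on both strands. The sequences read 5′ to 3′ along the gene's strand: Idh1 at chr1:65186430-65186729 (minus strand), G6pdx at chrX:74428831-74429130 (minus), Rpe at chr1:66700581-66700880 (plus) and Pgd at chr4:149166033-149166332 (minus). The second Idh1 promoter, at chr1:65179093-65179392 (minus), is not printed and held a GC box (bases 232 to 237).
Idh1: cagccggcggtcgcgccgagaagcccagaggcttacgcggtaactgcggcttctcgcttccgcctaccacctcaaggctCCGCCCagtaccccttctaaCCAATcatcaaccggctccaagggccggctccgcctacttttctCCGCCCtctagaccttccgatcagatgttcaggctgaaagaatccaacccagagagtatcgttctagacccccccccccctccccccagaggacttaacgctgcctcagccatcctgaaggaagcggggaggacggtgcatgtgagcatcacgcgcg
G6pdx: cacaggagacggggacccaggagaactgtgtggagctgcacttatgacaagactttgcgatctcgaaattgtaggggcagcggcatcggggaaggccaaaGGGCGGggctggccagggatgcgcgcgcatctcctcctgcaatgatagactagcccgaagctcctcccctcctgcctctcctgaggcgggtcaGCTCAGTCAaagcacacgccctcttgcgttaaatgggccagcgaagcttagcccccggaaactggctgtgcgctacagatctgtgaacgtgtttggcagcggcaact
Rpe: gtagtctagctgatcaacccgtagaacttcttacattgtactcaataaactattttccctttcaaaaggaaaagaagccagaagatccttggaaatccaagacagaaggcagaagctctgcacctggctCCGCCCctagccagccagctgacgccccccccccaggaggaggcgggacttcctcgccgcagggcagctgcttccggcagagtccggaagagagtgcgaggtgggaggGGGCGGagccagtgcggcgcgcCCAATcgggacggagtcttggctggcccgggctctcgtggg
Pgd: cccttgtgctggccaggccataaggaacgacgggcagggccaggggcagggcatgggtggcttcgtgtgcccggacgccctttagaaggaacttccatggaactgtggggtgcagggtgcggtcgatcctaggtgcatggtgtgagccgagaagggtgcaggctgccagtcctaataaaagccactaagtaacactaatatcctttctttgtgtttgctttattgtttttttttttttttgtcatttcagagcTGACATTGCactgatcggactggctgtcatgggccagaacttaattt

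The antioxidant response element was found in 2 of the 11 promoters and in 12.4% of all 32851 promoters. In G6pdx it starts 57 bases before the gene start, on the minus strand of the printed sequence (bases 194 to 202). In Pgd the letters lie just after the start of the printed promoter's transcript (bases 254 to 262), so within transcribed sequence. The other Pgd promoter, at chr4:149166656-149166955 (minus strand), is not printed. It held CCAAT boxes and a GC box but no antioxidant response element. The GC box was found in 9 of the 11 promoters (35.7% of all) and the CCAAT box in 5 (37.4% of all). The NR5A1 site AAGGTCA was found in the promoter of H6pd alone among the 9 genes (4.72% of all). The sterol regulatory element TCACNCCAC (1.24% of all), the E-box CACGTG (7.15%), the cyclic AMP response element TGACGTCA (1.79%) and the C/EBP-ATF element TGATGNAA (3.97%) were found in 0 of the 11. Of 3 further runs of letters, CATGNNNNG was found in 5 of the 11 (33.7% of all), AAGGNCA in 2 (20.3%), H6pd and G6pdx, and CAAGGTCA in 0 (1.56%). CATGNNNNG overlapped a GC box in Taldo1 and Tkt, and AAGGNCA took in the NR5A1 site of H6pd; no other match overlapped that of another motif. The printed promoters of G6pdx and Pgd lie inside the gene spans of the count table, which begin further upstream. The promoter of H6pd, at chr4:150003187-150003486 (minus strand), also lies inside its gene span, which begins upstream at 150009023. The starts of these promoters are therefore not the outermost ones of the genes. These matches describe letters within 300 bases and were not tested for binding.

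Idh1 makes 2-oxoglutarate and NADPH from isocitrate in the cytosol. Its normalized counts (Entrez Gene 15926, chromosome 1 from 65158616 to 65186479, minus strand) were 1282, 1461, 1767, 1697 and 1923 in the vehicle testes of M1 to M5, and 2349, 2943, 3351, 3836 and 2991 in the GPI testes of the same mice. The lowest GPI testis, that of M1, lay above the highest vehicle testis, that of M5. The means were 1630 ± 254 (SD, n = 5) and 3090 ± 549 (SD, n = 5), and the log2 fold change was 0.92 ± 0.08 (SE; edgeR adjusted p = 2.35e-06), a 1.90-fold difference with a 95% interval of 0.77 to 1.08 on the log2 scale. The fold change within a mouse ran from 1.56 in M5 to 2.26 in M4, so the sizes differed between mice but not the direction.

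G6pdx is the X-linked cytosolic glucose-6-phosphate dehydrogenase, which commits glucose 6-phosphate to the pathway and is its main point of control. Its normalized counts (Entrez Gene 14381, chromosome X from 74409486 to 74429161, minus strand) were 509, 705, 608, 675 and 657 with vehicle and 843, 935, 1084, 1014 and 928 with GPI, in the order M1 to M5. M1 was the lowest testis of each treatment, and the groups did not overlap. The log2 fold change was 0.61 ± 0.09 (SE; edgeR adjusted p = 0.000183), from 631 ± 76.6 to 961 ± 91.8 (SD, n = 5 each), and the fold change within a mouse ran from 1.33 in M2 to 1.78 in M3. Reads were counted without regard to strand, and Ikbkg overlaps the span of G6pdx on the other strand. Reads in such overlaps are uncertain, as they are for Idh3b (Nop56), Pfkp (Pitrm1), Pfkfb2 (Yod1), Srebf1 (Rai1) and Nr2f2 (B130024G19Rik) among other genes. Ikbkg had 362 ± 25.2 normalized counts with vehicle and 402 ± 27.3 with GPI (SD, n = 5 each; log2 fold change 0.15 ± 0.10, SE, edgeR adjusted p = 0.332).

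H6pd is the enzyme of the endoplasmic reticulum that carries out the same oxidation inside the lumen, where its NADPH serves steroid reductases. Its normalized counts (Entrez Gene 100198, chromosome 4 from 149979474 to 150009023) were 247, 184, 270, 242 and 225 with vehicle and 177, 155, 218, 230 and 173 with GPI. Each GPI value lay below the vehicle value of the same mouse, but the groups overlapped and the difference did not pass the threshold (log2 fold change -0.30 ± 0.12, SE, edgeR adjusted p = 0.0958).

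Pgls, the lactonase that follows G6pdx, and Pgd, the second NADPH-producing dehydrogenase, completed the oxidative phase. Pgls (Entrez Gene 66171, chromosome 8) had 99.3 ± 16.5 normalized counts with vehicle and 112 ± 17.5 with GPI (SD, n = 5 each; log2 fold change 0.17 ± 0.18, SE), and was higher in 4 of 5 mice. Pgd (Entrez Gene 110208, chromosome 4) had 212, 277, 209, 220 and 225 with vehicle and 347, 255, 230, 350 and 255 with GPI. The GPI testes of M1 and M4 stood above the other 8 libraries and the remaining values overlapped, with a log2 fold change of 0.32 ± 0.14 (SE, edgeR adjusted p = 0.125). Without M2, whose vehicle testis had the highest vehicle value, Pgd passed the threshold (log2 fold change 0.43, edgeR adjusted p = 0.0477). Of the 4 genes of the oxidative phase, 1 was called higher and 0 lower, with a median log2 fold change of 0.24.

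In the non-oxidative phase, Rpe, the epimerase that turns ribulose 5-phosphate into xylulose 5-phosphate, was the 1 of 4 genes called. Its normalized counts (Entrez Gene 66646, chromosome 1 from 66700831 to 66719805, plus strand) were 505, 389, 526, 510 and 507 with vehicle and 550, 603, 627, 612 and 636 with GPI. The groups did not overlap, and the vehicle testis of M2 was the lowest by a wide gap. The log2 fold change was 0.32 ± 0.10 (SE, edgeR adjusted p = 0.0283). This call is a weak one: it was lost without M2 (log2 fold change 0.24, edgeR adjusted p = 0.0792), without M3 (0.32, 0.0897), without M4 (0.33, 0.0704) and without M5 (0.32, 0.0714), and with total counts in place of TMM scaling (0.27, 0.0627). Kansl1l overlaps Rpe on the other strand, with 1230 ± 186 normalized counts with vehicle and 1390 ± 60.4 with GPI (SD, n = 5 each; log2 fold change 0.19 ± 0.09, SE, edgeR adjusted p = 0.162).

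Rpia, Tkt and Taldo1 were not called. Rpia (Entrez Gene 19895, chromosome 6), the isomerase that makes ribose 5-phosphate for nucleotides, had 105 ± 13.6 normalized counts with vehicle and 123 ± 14.4 with GPI (SD, n = 5 each; log2 fold change 0.22 ± 0.15, SE, edgeR adjusted p = 0.347). Tkt (Entrez Gene 21881, chromosome 14), the transketolase, had 485, 667, 439, 481 and 582 with vehicle and 533, 450, 399, 490 and 519 with GPI. It was higher in 2 of 5 mice, and its vehicle values spanned more than its GPI values (log2 fold change -0.14 ± 0.11, SE, edgeR adjusted p = 0.399). Taldo1 (Entrez Gene 21351, chromosome 7), the transaldolase, which works with transketolase in returning carbon to glycolysis, was higher in 3 of 5 mice (142 ± 20.3 against 161 ± 24.6 normalized counts, SD, n = 5 each; log2 fold change 0.17 ± 0.15, SE, edgeR adjusted p = 0.475). The 95% intervals of these log2 fold changes ran from -0.08 to 0.53 for Rpia, from -0.36 to 0.07 for Tkt and from -0.13 to 0.47 for Taldo1.

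Levels were compared between genes per length, as normalized counts per kilobase of the longest protein-coding transcript of the gene. In vehicle testes Idh1 stood first with 706 ± 110 per kilobase (SD, n = 5), followed by G6pdx with 238 ± 28.9, Rpe with 180 ± 20.5 and Tkt with 165 ± 28.7. Taldo1 (104 ± 14.9), Pgd (103, range 94.1 to 125) and Pgls (93.5 ± 15.5) came next, and Rpia (57.6 ± 7.43) and H6pd (49.2 ± 6.79) last. This order depends on the transcript taken. With the shortest one Idh1 (4380), G6pdx (505) and Tkt (328) kept their places, but H6pd (360) stood before Tkt. Rpe (181), Pgls (170), Taldo1 (116), Pgd (103) and Rpia (57.6) followed. Pgd and Rpia have the same length either way. With the longest transcript the ranges of neighbours overlapped except between Idh1 (557 to 835) and G6pdx (192 to 266), between Tkt (136 to 207) and Taldo1 (86.7 to 128), and between Pgls (77.5 to 118) and Rpia (46.3 to 65.3). With GPI the order by the longest transcript was the same except that Pgd (130 ± 25.6 per kilobase) stood before Taldo1 (118 ± 18.1). There G6pdx (362 ± 34.6, range 318 to 409) and Rpe (223, range 203 to 235) no longer overlapped, nor did Rpe and Tkt (148 ± 16.8, range 124 to 165), while the ranges of Tkt, Pgd, Taldo1 and Pgls overlapped from each to the next. Rpia (67.2 ± 7.88, range 57.2 to 79.2) and H6pd (40.2 ± 6.74, range 32.6 to 48.6) no longer overlapped either. Idh1 reached 1340 ± 238 per kilobase.

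Both NADP-dependent isozyme pairs differ by compartment, and the question was whether their difference itself moved. Idh2 is the mitochondrial counterpart of Idh1, with 535 ± 54.6 normalized counts with vehicle and 629 ± 52 with GPI (SD, n = 5 each; log2 fold change 0.24 ± 0.09, SE, edgeR adjusted p = 0.0799). The log2 ratio of GPI to vehicle of Idh1 minus that of Idh2 was 0.66, 0.68, 0.81, 1.09 and 0.20 in M1 to M5, with a mean of 0.69 ± 0.32 (SD, n = 5). Its sign was the same in 5 of 5 mice, with M5 far below the others. For G6pdx minus H6pd the differences were 1.20, 0.65, 1.14, 0.66 and 0.87, with a mean of 0.90 ± 0.26 (SD, n = 5). The exact two-sided sign-flip permutation test gave p = 0.0625 for each pair (adjusted over both, 0.0625), which is the smallest p that 5 mice allow, so this paired test could not reach 0.05. Without pairing by mouse, an exact two-sided permutation test over 252 regroupings gave p = 0.0159 for Idh1 minus Idh2 and 0.00794 for G6pdx minus H6pd (adjusted p = 0.0159 for each).

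**Figure D2:**
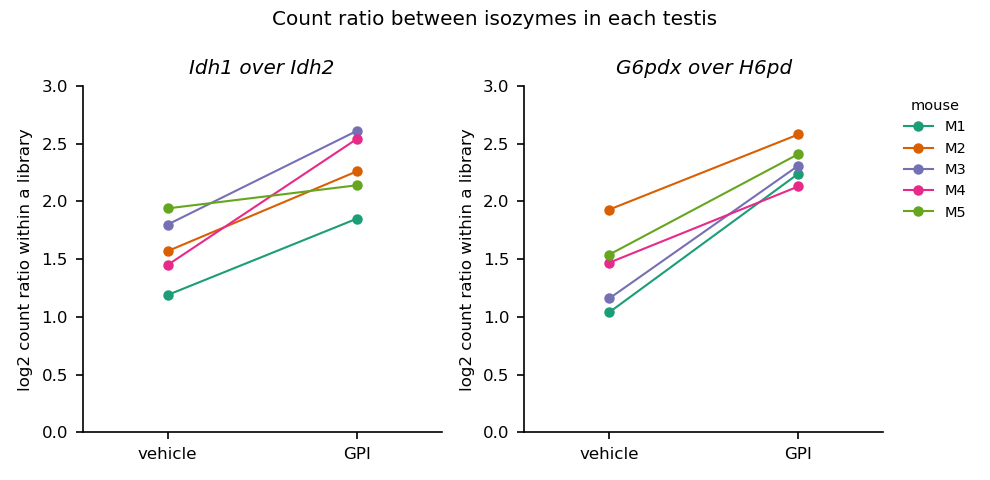
Log2 ratio of the counts of the isozymes within each library (vertical axes), with a prior count of 2, for Idh1 over Idh2 and for G6pdx over H6pd; a line joins the gonads of 1 mouse. Every line slopes upward, from means of 1.59 to 2.28 and of 1.43 to 2.33; the smallest step is that of M5 in Idh1 over Idh2, from 1.94 to 2.14.

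Genes that handle isocitrate and citrate were taken as a list of 8. Of these, 3 were higher with GPI and 0 lower, and the median log2 fold change was 0.16. Aco1, the cytosolic aconitase that supplies isocitrate in the compartment of Idh1, rose from 522 ± 37.5 to 1010 ± 214 normalized counts (SD, n = 5 each; log2 fold change 0.93 ± 0.11, SE, edgeR adjusted p = 2.87e-05). Its values were 493, 510, 526, 497 and 585 with vehicle and 816, 751, 1151, 1234 and 1103 with GPI, without overlap. Acly, which cleaves cytosolic citrate to acetyl-CoA, rose by 0.60 ± 0.11 (SE, edgeR adjusted p = 0.00103), and Idh3a, the catalytic subunit of the mitochondrial NAD-dependent enzyme, rose by 0.52 ± 0.12 (SE, edgeR adjusted p = 0.0064) on the log2 scale. The other subunits Idh3b (0.09 ± 0.09) and Idh3g (-0.24 ± 0.10) and the citrate carrier Slc25a1 (0.09 ± 0.09) were not called (log2 fold changes ± SE). At an unadjusted p under 0.05 the list held 5 genes, with Idh3g alone on the lower side, and DESeq2 and limma-voom called none of the 8 lower. Idh3g passed as lower with total counts only (log2 fold change -0.29, edgeR adjusted p = 0.0451).

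Among 11 other genes for NADPH sources, 4 were higher with GPI and 0 lower, with a median log2 fold change of 0.25. Me1, the cytosolic malic enzyme, had 1665, 2944, 2189, 2477 and 2740 normalized counts with vehicle and 3744, 4489, 5269, 6519 and 5229 with GPI. The groups did not overlap, and the log2 fold change was 1.07 ± 0.10 (SE, edgeR adjusted p = 3.8e-06). Aldh1l2, the mitochondrial 10-formyltetrahydrofolate dehydrogenase, rose from 221 ± 48 to 1150 ± 292 (SD, n = 5 each; log2 fold change 2.37 ± 0.16, SE, edgeR adjusted p = 2.24e-07), and Mthfd2, of the mitochondrial folate cycle, from 147 ± 14.6 to 391 ± 102 (1.38 ± 0.16, adjusted p = 3.03e-05). The cytosolic Aldh1l1 was called from few counts (2 to 63 per library; log2 fold change 1.60 ± 0.51, SE, edgeR adjusted p = 0.0363), and the call was lost without M3, M4 or M5 (edgeR adjusted p = 0.124, 0.103 and 0.102). Nadk, the cytosolic NAD kinase that makes NADP, had a log2 fold change of 0.34 ± 0.12 (SE, edgeR adjusted p = 0.0537) and passed without the replicate block (edgeR adjusted p = 0.0332), without M1 (0.0291) and in limma-voom (0.0449). Me3 (-0.16 ± 0.42), Mthfd1 (0.07 ± 0.10), Mthfd2l (-0.14 ± 0.19), Nnt (0.23 ± 0.09), Nadk2 (0.25 ± 0.12) and Idh2 were not called (log2 fold changes ± SE). At an unadjusted p under 0.05 there were 8 of the 11, none of them lower, against 34% of all tested genes, and DESeq2 and limma-voom called none lower.
Me1 overlaps A330041J22Rik on the other strand, which had 15.5 ± 7.75 normalized counts with vehicle and 34.7 ± 10.4 with GPI (SD, n = 5 each) and was called higher like Me1 (log2 fold change 1.19 ± 0.39, SE, edgeR adjusted p = 0.0426, 5 of 5 mice).

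**Figure D3:**
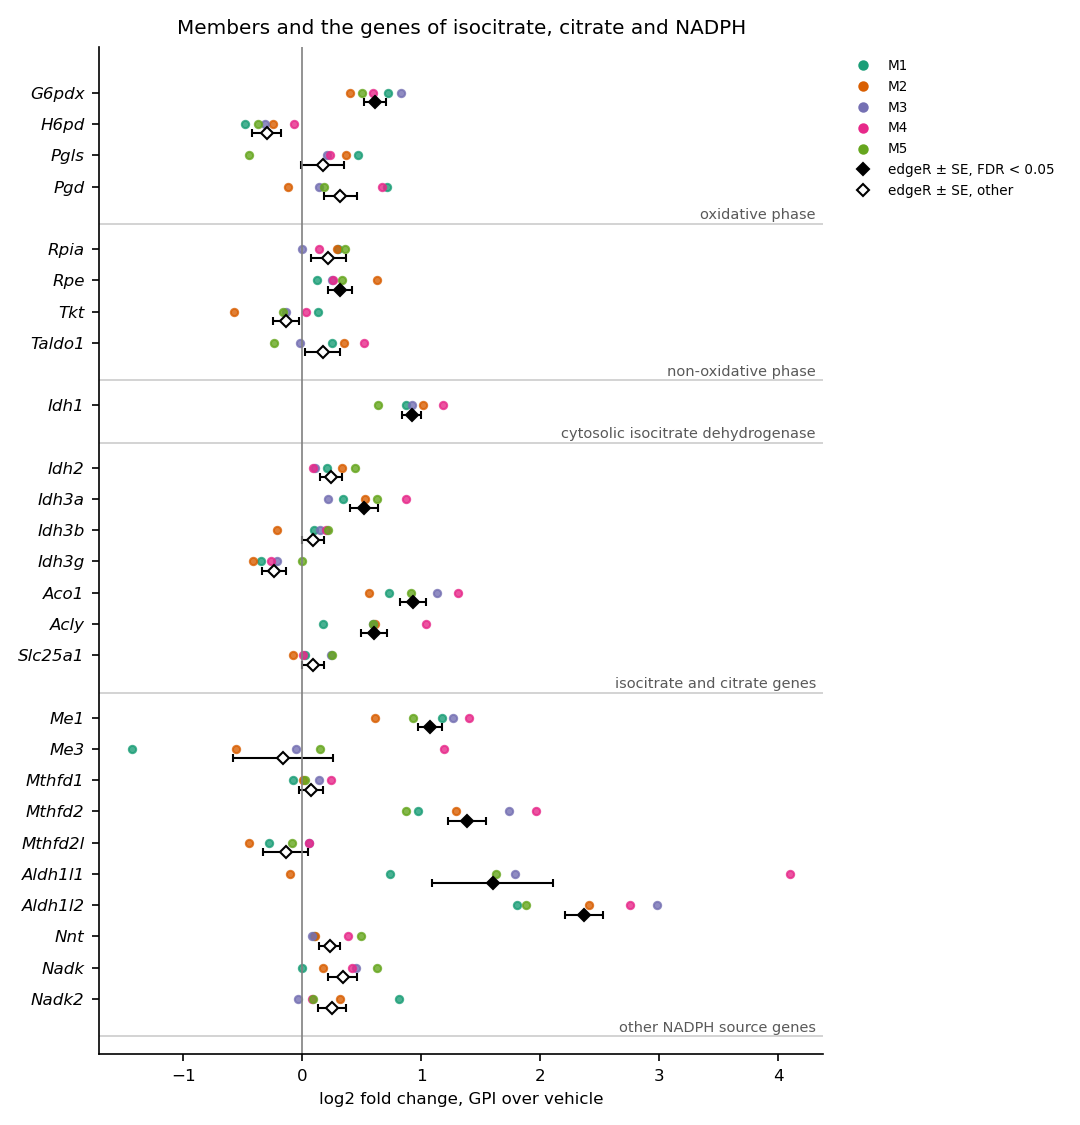
Log2 fold change of GPI over vehicle (horizontal axis) of the 9 genes and of genes of the lists for isocitrate and citrate and for other NADPH sources; coloured points are the 5 mice, diamonds the edgeR estimate ± SE, filled where the FDR was under 0.05. Idh2 belongs to 2 lists and is drawn once. The estimates of Aldh1l2 (2.37), Mthfd2 (1.38), Me1 (1.07), Aco1 (0.93) and Idh1 (0.92) lie to the right of those of the 8 pathway genes, of which G6pdx (0.61) is the farthest right.

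The pentose side genes, which carry ribose and related sugars into or out of the pathway, held no call. Of 12 genes 9 were tested, and 0 were called by edgeR, DESeq2 or limma-voom; at an unadjusted p under 0.05 there was 1, Prps2. The median log2 fold change was 0.08. Prps2 (0.25 ± 0.11), Prps1 (-0.06 ± 0.15), Prpsap1 (0.08 ± 0.10) and Prpsap2 (0.26 ± 0.12), which make phosphoribosyl pyrophosphate or bind the enzyme that does, stayed within 0.26 of 0 on the log2 scale (± SE). Prps1l3 (-0.14 ± 0.09) is a near-identical copy of Prps1, so the split of reads between them is uncertain. Rbks, the ribokinase (0.64 ± 0.34), Dera, the deoxyribose-phosphate aldolase (-0.32 ± 0.22), Idnk, the gluconokinase (0.26 ± 0.19), and Tktl1, a transketolase-like gene (-0.06 ± 0.43), had few counts and wide errors. G6pd2, the retrogene copy of G6pdx, had 2 counts in the 10 libraries together, Tktl2 had 7 and Shpk, the sedoheptulokinase, had 110; these 3 were not tested.

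NADPH users were counted from a list of 13 genes. With GPI, 7 were higher and 0 lower, and the median log2 fold change was 0.38. By mouse, the median log2 ratio of the list was -0.05 in M1 and 0.40 to 0.85 in the other 4. Fdxr, which passes electrons from NADPH to mitochondrial steroidogenic cytochromes, had 168, 255, 327, 297 and 370 normalized counts with vehicle and 659, 822, 931, 1002 and 892 with GPI. These groups did not overlap (log2 fold change 1.63 ± 0.11, SE, edgeR adjusted p = 2.02e-07). Fasn, the fatty acid synthase, rose by 1.06 ± 0.10 (SE, edgeR adjusted p = 2.96e-06) and Dhcr7, of cholesterol synthesis, by 1.05 ± 0.13 (SE, edgeR adjusted p = 3.62e-05) on the log2 scale. The glutathione reductase Gsr (-0.14 ± 0.08) and the thioredoxin reductase Txnrd1 (0.12 ± 0.09) were not called (log2 fold changes ± SE). The list's other called genes lay between 0.38 and 0.77 on the log2 scale. At an unadjusted p under 0.05 the same number, 7, was reached.

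Glucose 6-phosphate, the substrate of G6pdx, is made by hexokinases and through glycogen breakdown, the route that GPI inhibits. It is drawn off by glycolysis. Of 15 genes around this branch 13 were tested, and 3 were higher and 5 lower with GPI (median log2 fold change 0.16). Hk1, a hexokinase, had 380, 418, 308, 356 and 422 normalized counts with vehicle and 513, 148, 147, 135 and 169 with GPI. The GPI testis of M1 was the highest of the 10 libraries, and the other 4 GPI testes lay below every vehicle testis. Pfkp, the platelet-type phosphofructokinase, had the same form, with 812, 740, 562, 615 and 683 with vehicle and 898, 187, 104, 88.4 and 165 with GPI. The log2 fold changes were -0.96 ± 0.23 for Hk1 (SE, edgeR adjusted p = 0.00763) and -1.78 ± 0.31 for Pfkp (SE, edgeR adjusted p = 0.000921). Without the replicate block neither passed (-0.77, edgeR adjusted p = 0.0825, and -1.25, 0.0709), and without M1 they were -1.34 and -2.31. Gpi1, the isomerase that passes glucose 6-phosphate on to glycolysis (-0.70 ± 0.20), Pfkl (-0.62 ± 0.16) and Pfkfb3 (-0.82 ± 0.19) were the other lower genes (log2 fold changes ± SE), and without the replicate block none of these passed either (edgeR adjusted p = 0.419, 0.22 and 0.109). Gpi1 also failed to pass in DESeq2 (adjusted p = 0.0943) and without M2, M3, M4 or M5 (edgeR adjusted p = 0.0725, 0.0656, 0.0895 and 0.0964), and Pfkl without M3 or M4 (0.056 and 0.0605). Hk2, the hexokinase induced in growing cells, rose from 1140 ± 160 to 1570 ± 129 (SD, n = 5 each; log2 fold change 0.47 ± 0.09, SE, edgeR adjusted p = 0.0017), and Pfkfb2, a kinase of fructose 2,6-bisphosphate, rose by 0.41 ± 0.09 (SE, edgeR adjusted p = 0.00496), each in 5 of 5 mice. Hkdc1 had 1 count in all and was not tested.
M1 did not stand apart in the same way for the 3 called genes of the pathway and Idh1: its fold changes were 1.83 for Idh1, 1.65 for G6pdx and 1.09 for Rpe, and without M1 the same 3 of 9 genes were called.

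**Figure D4:**
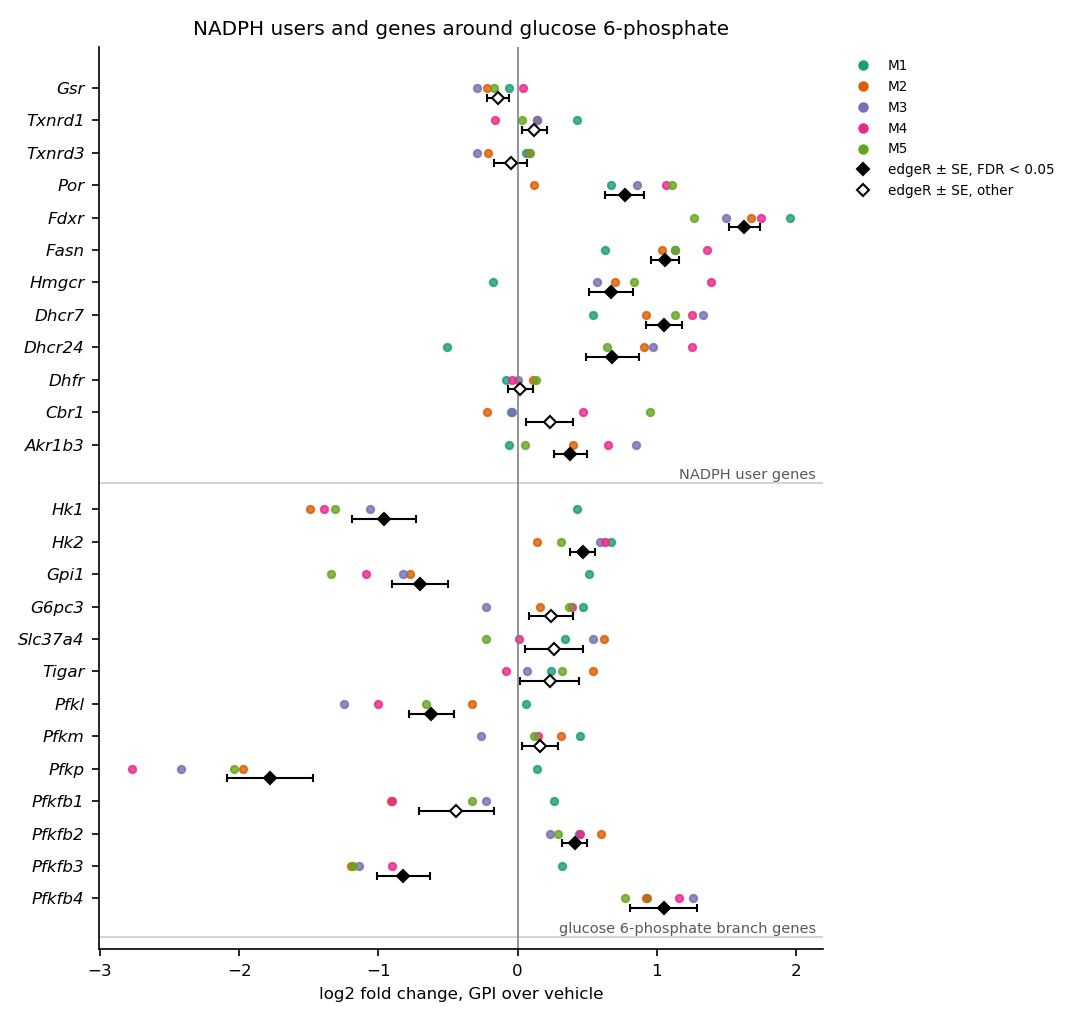
Log2 fold change of GPI over vehicle (horizontal axis) for tested NADPH users and genes around glucose 6-phosphate; coloured points are the 5 mice, diamonds the edgeR estimate ± SE, filled where the FDR was under 0.05. In Hk1, Gpi1, Pfkl, Pfkp and Pfkfb3 the point of M1 lies to the right of 0 (0.43, 0.51, 0.06, 0.14 and 0.32), and the points of the other 4 mice lie to the left.

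Reference genes of 2 regulators known to act on NADPH enzymes were counted as well. Of 8 NRF2 reference genes, 3 were higher and 0 lower, with a median log2 fold change of 0.42: Slc7a11, the cystine transporter (1.99 ± 0.21), Keap1, the inhibitor of NRF2 (0.42 ± 0.10), and Gclc, of glutathione synthesis (0.41 ± 0.11; log2 fold changes ± SE). Nfe2l2, which encodes NRF2, and Nqo1, its classic target, were not called (0.16 ± 0.08 and 0.46 ± 0.36). Srxn1 (0.80 ± 0.28), Hmox1 (0.28 ± 0.16) and Gclm (-0.03 ± 0.17) were not called either. Keap1 did not pass without M4 (0.38, edgeR adjusted p = 0.0509), and Nfe2l2 passed without M2 (0.24, edgeR adjusted p = 0.038). Of 6 SREBP reference genes, 3 were higher and 0 lower, with a median of 0.63. The median log2 ratio of this list was 0.04 in M1 and 0.55 to 1.18 in the other 4 mice. The higher genes included Scap, the SREBP escort protein (1.31 ± 0.12), and Insig1 (0.80 ± 0.16), whose log2 ratio in M1 was -0.16. Srebf1 (0.21 ± 0.12) and Srebf2 (0.29 ± 0.13), which encode the factors, were not called; Srebf2 passed without M1 (0.41, edgeR adjusted p = 0.0197). At an unadjusted p under 0.05 there were 4 NRF2 and 5 SREBP reference genes, none of them lower. Whether either regulator has a part in the values of G6pdx or Idh1 was not tested.

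The cell types that make up the gonad differed in their marker levels between treatments, and in bulk RNA fewer cells of a type and less RNA per cell cannot be told apart. Fetal Leydig cell markers were higher in 4 of 4 tested genes, with a median log2 fold change of 2.32, and Insl3 had 20 counts in all and was not tested. Their summed normalized counts were 1280, 2700, 3980, 1991 and 5303 with vehicle and 9634, 10120, 15750, 18090 and 12930 with GPI, without overlap, and Hsd3b1 held 42.8% of the sum. The named steroidogenic enzymes Cyp17a1, Cyp11a1 and Hsd3b1 rose by 3.90 ± 0.29, 2.90 ± 0.27 and 1.75 ± 0.20 on the log2 scale (± SE). By mouse, from M1 to M5, the median log2 ratio of the tested Leydig markers was 3.17, 2.06, 1.94, 3.29 and 1.25. That of Idh1 was 0.87, 1.01, 0.92, 1.18 and 0.64, and that of G6pdx was 0.72, 0.40, 0.83, 0.59 and 0.50. M4 was highest and M5 lowest for both the Leydig markers and Idh1, but M1 stood next to the top for the Leydig markers and next to the bottom for Idh1.

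Sertoli cell markers were higher in 4 of 6 genes and lower in 0 (median log2 fold change 0.54): Sox9 (0.59 ± 0.09), Dhh (0.92 ± 0.15), Dmrt1 (0.53 ± 0.17) and Aard (0.54 ± 0.12), while Amh (0.08 ± 0.22) was not called (± SE). Their sums were 2917, 4289, 3312, 4306 and 4555 with vehicle and 3203, 5887, 5963, 7838 and 5856 with GPI, Aard being the most abundant (44.4%), and M1 with GPI lay within the vehicle range. Without the replicate block Dmrt1 and Aard did not pass (edgeR adjusted p = 0.0976 and 0.0929), and Dmrt1 was also lost with total counts only (0.0613) and without M2 (0.102), M3 (0.114), M4 (0.186) or M5 (0.107), and Aard without M3 (0.0502). Interstitial progenitor markers were higher in 1 of 4 genes, Pdgfra (0.33 ± 0.07), and lower in 2, among them Tcf21 (-0.30 ± 0.08). Nr2f2 (-0.18 ± 0.07) was not called, but passed with total counts only (edgeR adjusted p = 0.0441). Tcf21 did not pass without M2, M3 or M4 (edgeR adjusted p = 0.0586, 0.0942 and 0.0743). The sums, led by Pdgfra (49.6%), were 11480, 13350, 13230, 11110 and 13090 with vehicle and 12920, 13280, 12370, 11470 and 14080 with GPI.

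Endothelial markers were lower in 6 of 6 genes (median log2 fold change -2.76), among them Pecam1 (-4.16 ± 0.15), Cdh5 (-3.63 ± 0.12) and Kdr (-2.44 ± 0.13; ± SE). Their sums were 6426, 6968, 6180, 7157 and 6402 with vehicle and 770, 952, 634, 527 and 680 with GPI, and Cdh5 was the most abundant (41.7%). Germ cell markers were lower in 3 of 4 tested genes (median -3.67), namely Dazl, Ddx4 and Dppa3, and Pou5f1 and Nanos3 were at 0 in at least 1 library. Their sums, led by Dazl (46.3%), were 875, 1907, 1147, 1593 and 584 with vehicle and 133, 118, 37.1, 42.1 and 105 with GPI.

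Macrophage markers were lower in 3 of 4 tested genes (Csf1r, C1qa and Mrc1; median -1.56), Adgre1 (-0.26 ± 0.25, SE) was not called, and C1qa and Fcgr1 were at 0 in at least 1 library. Their sums, led by Mrc1 (42.8%), were 474, 288, 370, 337 and 276 with vehicle and 206, 194, 153, 126 and 95.9 with GPI. Erythroid markers were lower in 6 of 6 genes (median -1.54; Hba-a1 and Hba-a2 are near-identical and their split is uncertain), with sums, led by Hbb-y (70.9%), of 1559, 1987, 3667, 3386 and 2936 with vehicle and 1368, 808, 750, 827 and 1913 with GPI. Hba-a2 did not pass without M2, M3 or M4 (edgeR adjusted p = 0.0549, 0.0596 and 0.0655). Pre-granulosa markers were lower in 1 of 3 genes, Wnt4 (-0.78 ± 0.11, SE), which held 87.3% of sums of 1356, 1322, 1148, 1110 and 943 with vehicle and 941, 687, 692, 508 and 780 with GPI; Foxl2 and Fst were not called. Of 4 mesonephric tubule markers only Pax8 was tested, and was not called (-0.28 ± 0.27, SE); Pax2 and Cdh16 were among those at 0 in at least 1 library. Their sums were 691, 112, 307, 133 and 58.7 with vehicle and 181, 272, 114, 111 and 98.1 with GPI, led by Pax8 (73.5%). The part of these cell types in the values of Idh1, G6pdx and Rpe was not tested.

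**Figure D5:**
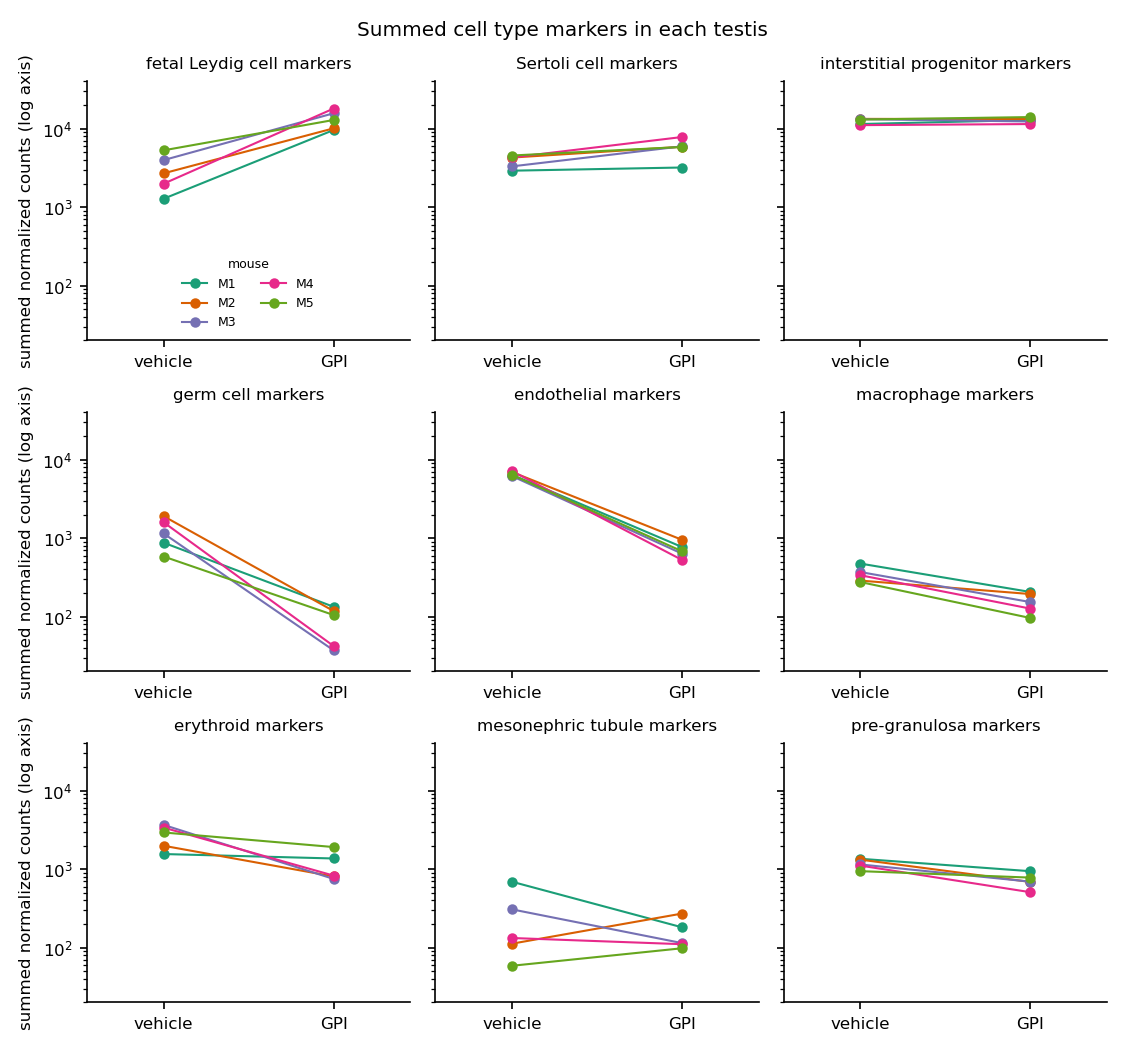
Summed normalized counts of each list of cell type markers in each testis (vertical axis, log scale, the same in all panels) with vehicle and with GPI; a line joins the gonads of 1 mouse. Fetal Leydig sums go up in every mouse (1280 to 5303 with vehicle, 9634 to 18090 with GPI), endothelial and germ cell sums go down in every mouse, and the interstitial progenitor sums stay between 11110 and 14080.

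The genes with the pattern most like that of Idh1 over the 10 libraries were sought among 11104 other tested genes (mean count per library 50 or more), by the root mean square difference of log2 normalized counts, each centred on its own mean. The 5 closest were Tmem119 (0.103), Fads1 (0.103), the delta-5 fatty acid desaturase, Adgrl1 (0.110), Synm (0.123) and Ryr2 (0.125), with log2 fold changes from 0.80 for Adgrl1 to 1.04 for Synm. For G6pdx they were Plxna1 (0.092), Akap17b (0.100), Mtm1 (0.101), Serinc3 (0.105) and Lsr (0.106), with log2 fold changes from 0.57 for Mtm1 to 0.70 for Plxna1. The measure takes in the difference between treatments, so genes close by it have similar fold changes by construction. Between Idh1 and G6pdx themselves the difference was 0.227, which is the smallest from Idh1 to any of the 8 pathway genes. The largest was to H6pd, at 0.646. Among the 9 genes, Rpia and Rpe had the smallest difference (0.125), followed by Pgls and Taldo1 (0.139).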

How the data were processed

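Raw counts for 24470 gene entries were used as the authors deposited them; STAR had aligned the read pairs to mm10, and featureCounts had assigned them to RefSeq Curated genes on either strand. RNA was amplified without molecular identifiers, so errors rest on the differences between mice. filterByExpr (minimum count 10, minimum total 15) left 13941 genes. edgeR 4.0.16 in R 4.3.3 (TMM, quasi-likelihood F test, mouse and treatment in the design, FDR 0.05) gave the calls. SE is the size of the log2 fold change over the root of F, and 95% intervals are normal. Directions in single mice used a prior count of 2. The procedure was tested on simulated data, and the outcome of that test is not given here.

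Gonads were paired by mouse as labelled; deviations from the treatment mean correlated by 0.06 on average within a mouse (-0.04 to 0.156) and by -0.015 between mice. Chi-square per degree of freedom between libraries of 1 treatment ran from 6.42 to 27.8, so none were duplicates. Transcript lengths came from GENCODE M21.

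The members and lists were chosen with earlier results of these data known. Named are the 9 members, every gene of the pentose side, isocitrate and citrate, and other NADPH source lists, the 3 written at the start of each other list and its 3 smallest p, and 5 genes most like Idh1 and G6pdx each, 103 genes of which 96 were tested. The text and plots leave some of these out; the counts, medians and sums of the lists include them. Some others appear for a value, in captions or with overlapping spans and were chosen after their values were seen; of these only Gpi1, Pfkl, Pfkfb3 and Hbb-y were run through the alternatives. Alternatives were DESeq2 1.42.0, limma-voom (3.58.1), no replicate block, other scalings, filters and prior counts, each mouse left out, and the shortest transcript.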

Additional observations from a re-analysis of the deposited data

Results flagged for a closer look

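In each treatment, the testis farthest from its neighbour was compared with the whole range of the 5 testes by Dixon's ratio, for the tested genes named by the rule in the methods, the isozyme ratios and the marker sums. Of 214 such groups 11 had a testis far from the others. Chance alone gives about 1 in 20 among independent, normally distributed groups. These groups share libraries, and 5 of the 11 came from the GPI testis of M1. Whether the count is that of chance was not tested. Gpi1, Pfkl, Pfkfb3 and Hbb-y were added after their values were seen, and their 3 of 8 groups are not set against chance; other genes were not examined. Values are normalized counts.

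Among the 9 genes, Pgd was high in the vehicle testis of M2 (277, others 209 to 225), Rpe was low in the same testis (389, others 505 to 526), and Taldo1 was high in the GPI testis of M4 (203, others 143 to 160). Among the pentose side genes, Idnk (80.0, others 65.7 to 69.2) and Prpsap1 (412, others 344 to 364) were high in the vehicle testis of M5, and Prps2 in that of M3 (480, others 368 to 400).

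The GPI testis of M1 accounted for 5 of the 11. It was high in Hk1 (513, others 135 to 169), Pfkp (898, others 88.4 to 187), Nadk2 (1010, others 663 to 721) and Gclc (440, others 336 to 358), and low in Synm (528, others 761 to 829). Of the added genes Gpi1 (1980, others 423 to 562) and Pfkfb3 (650, others 189 to 246) were high in the same testis, and Pfkl in the vehicle testis of M1 (678, others 437 to 488). The depth of the GPI library of M1, 11025409 counts, was the lowest of the 5 GPI libraries. Its part in these values was not tested.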

How the results depend on the processing

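The number of genes called over the whole table ran from 2819 (at least 10 counts in every library) to 3472 (no low-count filter) over the other fits, against 3198, and from 2311 to 3082 with each mouse left out. Of the genes called, 1238 were higher and 1972 lower with total counts only, against 1544 and 1654. Without the replicate block, that is without pairing by mouse, 3108 genes were called, and 3 of the 9 members. Members called numbered 2 with total counts only, and from 2 to 3 without each mouse in turn. Idh1 (0.86 to 1.0) and G6pdx (0.54 to 0.66) kept their calls in 12 of 12 alternatives (log2 fold changes with a mouse left out), Rpe in 7 of 12; H6pd, Pgls, Rpia, Tkt and Taldo1 were called in 0 of 12 and Pgd in 1.

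Without the replicate block both isozyme differences passed (exact permutation, adjusted p = 0.0159). Their means, 0.69 for Idh1 minus Idh2 and 0.90 for G6pdx minus H6pd, are the same with or without pairing by construction. With each mouse left out they were 0.59 to 0.81 and 0.83 to 0.97. The paired exact p cannot be below 0.0625 with 5 mice or 0.125 with 4, so under prior counts, scalings and left-out mice it says nothing about stability.

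No called gene examined changed sign. Of 54 other genes called and named by rule, 45 were called in every alternative run; of 33 not called, 28 were called in none. Of the 4 added after their values were seen, 1 was called in every alternative run. Without the replicate block, calls changed for Hk1, Pfkp, Gpi1, Pfkl, Pfkfb3, Dmrt1, Aard and Nadk and for no other gene examined; the cause was not tested. With the shortest in place of the longest transcript the level per kilobase in vehicle testes moved most for Idh1 (4380), G6pdx (505), H6pd (360), Tkt (328) and Pgls (170), and only Idh1, G6pdx and Tkt kept their places, so the order depends on the transcript. Pgls, Rpia and Taldo1, with the fewest counts of the 9 (1065, 1141 and 1526 in the 10 libraries together), had the largest SE (0.15 to 0.18).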

Other observations

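Idh1 and Rpe lie on chromosome 1, 1510 kb apart. Of 5 gene entries between them 3 were tested, and Map2 and Pikfyve were higher with GPI while Unc80 was not called (named after their values were seen). Pgd and H6pd lie 813 kb apart on chromosome 4, with 14 entries between them, 11 tested, 2 higher and 1 lower. Whether position has a part in these values was not tested.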
